A study of Mus musculus with 69 samples.

Results

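Hearts of adult male CD-1 mice (an outbred strain) weighing 20 to 35 g were compared 2 h after a single injection of cyanide or saline under the skin. The 4 KCN arrays came from mice given potassium cyanide at 8.0 mg/kg, and the 3 saline arrays from mice given the same volume of saline, without anesthesia in either group. These 7 arrays are all those of the series labelled as KCN or saline at 2 h, out of 69 arrays in 18 groups, which also cover injection at 1, 4, 8 and 24 h and inhaled hydrogen cyanide. Whole-heart RNA was measured on Affymetrix 3′ expression arrays, and each value is a log2 signal per probe set, so that a difference of 1 is a factor of 2. The labels call the arrays biological replicates, and nothing more is said of the mice. A filter on dim probe sets left 26755 of 45141 for testing, 19917 of them with a single gene symbol, which stand for 12432 genes.

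Cyanide binds cytochrome c oxidase, the enzyme that passes electrons to oxygen at the end of the respiratory chain, and so stops mitochondrial ATP production in a tissue that depends on it. Cells under acute stress first switch on immediate early genes, such as the Fos, Jun, Egr and Nr4a transcription factors, whose transcripts rise within minutes and are soon degraded. A second layer, set by hormones such as adrenal glucocorticoid and by cytokines, follows over hours and includes Fkbp5, Cebpd and acute phase genes. In bulk tissue, fewer cells of a type and less RNA per cell cannot be told apart.

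Nr4a3 and Atf3 showed the largest rises of named immediate early genes at 2 h, and Nr4a1 and Maff rose with them. Their upstream sequences are shown because the Nr4a genes and Atf3 are known targets of the cAMP- and stress-activated factors of the CREB and ATF family, which bind the half-site TGACG and the full palindrome TGACGTCA. Each sequence is the 250 bases before the annotated RefSeq start in GRCm38.p6, 5′ to 3′ on the gene's strand, with every TGACG on either strand (CGTCA on the other) in capitals. Overlapping matches were counted separately, so that the palindrome counts as 2 half-site matches.

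Nr4a1 (chr15:101266596-101266845, plus strand): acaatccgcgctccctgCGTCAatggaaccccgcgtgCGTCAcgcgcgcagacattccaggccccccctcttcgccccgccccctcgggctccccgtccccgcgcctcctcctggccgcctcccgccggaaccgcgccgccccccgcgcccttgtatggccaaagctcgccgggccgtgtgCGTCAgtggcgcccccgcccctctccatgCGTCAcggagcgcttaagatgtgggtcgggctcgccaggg
Nr4a3 (chr4:48045055-48045304, plus strand): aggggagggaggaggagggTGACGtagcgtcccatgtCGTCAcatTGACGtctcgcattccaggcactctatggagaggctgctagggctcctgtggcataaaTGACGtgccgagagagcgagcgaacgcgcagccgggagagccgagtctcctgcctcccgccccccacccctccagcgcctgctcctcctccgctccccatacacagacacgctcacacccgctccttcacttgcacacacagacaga
Atf3 (chr1:191183334-191183583, minus strand): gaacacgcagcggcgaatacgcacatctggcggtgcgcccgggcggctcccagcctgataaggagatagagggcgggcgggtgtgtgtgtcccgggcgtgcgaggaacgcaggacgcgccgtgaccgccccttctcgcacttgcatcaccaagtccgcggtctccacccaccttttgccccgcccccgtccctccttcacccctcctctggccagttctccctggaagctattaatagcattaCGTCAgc
Maff (chr15:79347270-79347519, plus strand): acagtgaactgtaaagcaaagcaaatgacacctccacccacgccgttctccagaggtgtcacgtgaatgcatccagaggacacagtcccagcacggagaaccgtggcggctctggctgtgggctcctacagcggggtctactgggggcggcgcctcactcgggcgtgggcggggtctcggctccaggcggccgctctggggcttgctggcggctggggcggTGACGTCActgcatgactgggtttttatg

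The windows of Nr4a1 and Nr4a3 held 4 matches each, which 45 of 32851 promoter windows of this length reached (0.137%). The Atf3 window held 1 match, as did the windows of many genes, since 17.8% of all windows held at least 1. Maff has 3 annotated starts, and the window shown was chosen because it holds the palindrome, which stood in 1.55% of windows. The other Maff windows held 0 and 1 matches and no palindrome. A match is a run of letters in the sequence and not a measured binding site.

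The saline 2 h arrays stood apart from every other injection array in the 18S ribosomal RNA control, which Affymetrix prints beside the genes. Its level was 11.85, 11.60 and 11.19 in the 3 saline 2 h arrays and 12.86, 12.91, 12.82 and 12.96 in the 4 KCN 2 h arrays. The other 30 injection arrays lay between 12.78 and 13.19. The difference of 1.34 had an exact permutation p of 0.0571, two-sided and adjusted to 0.286 over 5 control measures, and 0.0571 is the smallest that 4 against 3 arrays can give. The 3′ to 5′ difference of actin, a measure of RNA integrity, was 0.42 ± 0.08 in saline and 0.47 ± 0.08 in KCN arrays (SD, n = 3 and 4, exact p = 0.457). All 7 arrays correlated with each other at 0.981 to 0.993, and the summed signal of 11 ventricular muscle markers was 16.39 to 16.50 in all of them, as a heart sample should show. The part of the 18S difference in the results was not tested directly, so most results are given beside a second control, the mean of the 7 saline arrays of 1 h and 4 h. This control shares the 4 KCN arrays with the main comparison and differs from them in time after injection.

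**Figure D1:**
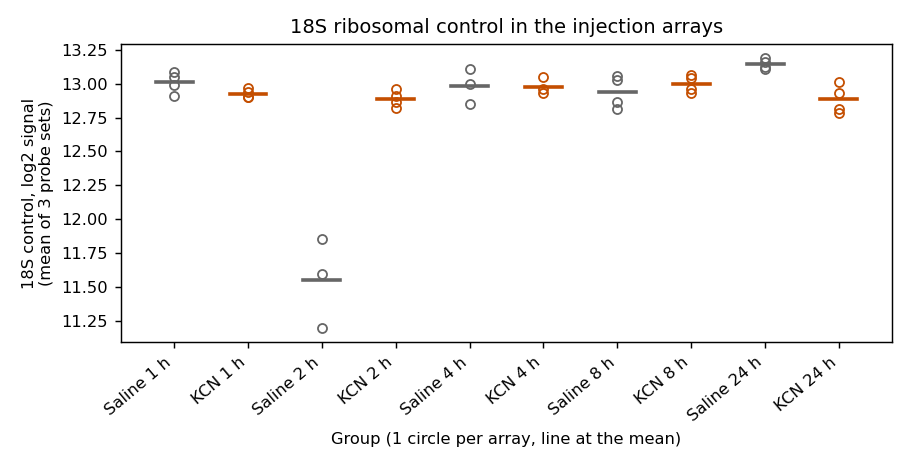
Mean log2 signal of the 3 probe sets of the 18S control (vertical axis) in each of the 37 injection arrays by group (horizontal axis); circles are arrays and lines are group means. The 3 saline 2 h arrays lie between 11.19 and 11.85, below all other injection arrays.

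At an adjusted p of 0.05 or less (limma, Benjamini-Hochberg), the rule used for every call here, 882 probe sets were higher after KCN and 882 lower, 6.59% of those tested, and 3.30% in each direction. The KCN and saline arrays did not overlap for 4245 probe sets (15.9%). A change of at least 1.5-fold was reached by 1139 of the calls (695 higher, 444 lower; 4.26% of those tested). The saline 2 h arrays differed from the mean of saline 1 h and 4 h at 5488 probe sets, 20.5% of those tested (3215 higher, and 2273 or 8.50% lower). Against that mean the KCN 2 h arrays differed at 2957 (11.1%), with 1707 higher (6.38%) and 1250 lower (4.67%). Of the 1764 calls, 339 were called in the same direction against either control (205 higher, 134 lower; 1.27% of those tested, and 115 and 111 genes with a symbol), 69 were called in opposite directions, and 1356 were called against saline 2 h alone. In a stricter view, 79 probe sets were higher and 62 lower in all 4 KCN arrays than in all 10 saline arrays of 1, 2 and 4 h, besides being called (0.295% and 0.232%). The count of 1764 fell to 1065 without saline array 3 and to 871 without KCN array 4. With the 18S level as a covariate no probe set was called, and 2778 had an unadjusted p under 0.05. Since that level separates the saline 2 h arrays from all other injection arrays, the covariate and the group cannot be told apart, and nothing is read from this fit. The equal split between higher and lower calls depended on the setting. It was 918 higher and 758 lower with quantile normalization, 815 and 979 with each array centred on its median, 415 and 129 in a fit of only the groups compared, and 269 and 499 with 1 value per gene.

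**Figure D2:**
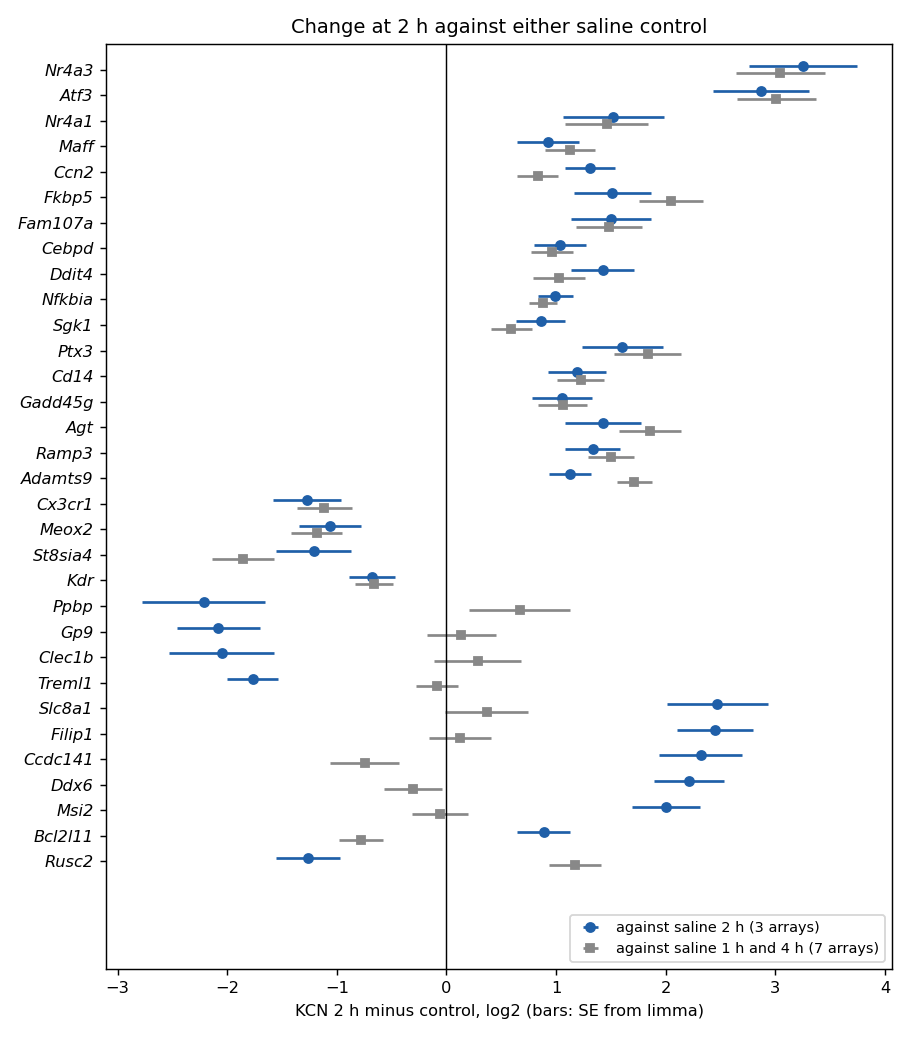
Log2 change after KCN at 2 h (horizontal axis) of 32 genes, against the 3 saline 2 h arrays (blue circles) and against the mean of the 7 saline 1 h and 4 h arrays (grey squares); bars are standard errors from limma. From Nr4a3 to Kdr both values lie on the same side of 0, whereas the platelet genes Ppbp to Treml1 lie between -0.09 and 0.67 with the second control. Ppbp, Gp9, Clec1b, Ccdc141, Ddx6, Msi2, Bcl2l11 and Rusc2 change sign, and of these only Bcl2l11 and Rusc2 are called with either control.

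Among the immediate early genes other than Fos and Jun, 7 of 26 members tested rose and 1 fell, where 2.02% of all genes rose and 4.36% fell by their brightest probe set (6.38% in all). With the second control 7 rose and 1 fell, where 6.18% of all genes rose and 5.82% fell. The median change of the list was 0.20, against -0.05 over all genes. Nr4a3, an orphan nuclear receptor, was at 10.61, 8.76, 10.63 and 10.11 in the KCN arrays and at 5.90, 6.95 and 7.49 in the saline arrays. All KCN arrays lay above all saline arrays of 1, 2 and 4 h, with a change of 3.25 ± 0.49 (SE), 9.53-fold, and an adjusted p of 1.41e-05. The change was 3.05 with the second control. A dimmer Nr4a3 probe set rose by 0.57, and another did not pass (0.16).

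Atf3, a repressor of the ATF/CREB family induced by many stresses, was at 10.23, 7.77, 10.45 and 9.39 after KCN and at 6.37, 7.13 and 6.27 after saline. KCN array 2 was the lowest of the treated arrays and lay within the range of the saline 1 h arrays (6.13 to 8.07). The change was 2.87 ± 0.44, 7.31-fold (adjusted p = 1.64e-05), and 3.01 with the second control. Both genes kept the call without any single array, with changes of 2.81 to 3.67 for Nr4a3 and 2.54 to 3.43 for Atf3.

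Nr4a1, the sister receptor of Nr4a3, was at 9.17, 8.44, 8.97 and 8.85 after KCN and at 6.33, 7.89 and 7.80 after saline. The groups did not overlap, and the change was 1.52 ± 0.46 (adjusted p = 0.0326). In the saline 1 h arrays Nr4a1 stood at 8.83 to 9.78, as high as after KCN at 2 h, and in the saline 4 h arrays at 4.75 to 5.81, so that the change of 1.46 against their mean joins unlike levels. The call was lost without saline array 1 or KCN array 1, 3 or 4 (adjusted p 0.0556 to 0.272). Maff, a small basic leucine zipper protein that partners stress factors, was at 7.78, 6.91, 7.54 and 7.29 after KCN and at 6.40, 6.59 and 6.38 after saline, a change of 0.92 (adjusted p = 0.0331) that was 1.13 with the second control. It was lost without any of the 3 saline arrays or KCN array 1, 3 or 4 (adjusted p 0.0578 to 0.123).

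Ccn2, a matricellular growth factor that stretch and YAP signalling induce, was at 11.12, 10.70, 11.00 and 10.85 after KCN and at 9.42, 9.70 and 9.70 after saline. It rose by 1.31 ± 0.23, 2.48-fold (adjusted p = 0.000128), and by 0.83 with the second control. Btg2, an antiproliferative partner of mRNA deadenylases, rose by 2.59 against saline 2 h, and its change of 1.21 missed the threshold with the second control (adjusted p = 0.067). Its other probe set, which was brighter in saline, was at -0.43 and did not pass. Klf6, a zinc finger factor, rose by 0.88 against saline 2 h but was at 0.26 with the second control and was lost without saline array 2 (adjusted p = 0.0618). Ier3, an early gene that limits cell death, fell by 0.72, and by 0.61 with the second control. That call was lost without saline array 1 or KCN array 2 or 4 (adjusted p 0.0781 to 0.239).

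In the Fos and Jun family no member was called higher at 2 h. Of 7 members tested, 1 fell and none rose, where 4.36% and 2.02% of all genes did. With the second control none was called. Jun was at 8.15, 8.07, 8.11 and 7.72 in the KCN arrays and at 9.21, 9.09 and 9.17 in the saline arrays. All KCN arrays lay below all saline 2 h arrays, and the change was -1.15 ± 0.24 (adjusted p = 0.00118). Against the second control it was -0.46 (adjusted p = 0.12), since the saline 2 h arrays held more Jun than the saline 1 h arrays (8.09 to 8.95) and 4 h arrays (8.29 to 8.53). Fos was at 5.11 to 6.78 after KCN and at 5.15 to 7.33 after saline, a change of 0.00 ± 0.65 that was -0.32 with the second control (adjusted p = 0.768). Of the cAMP and CREB targets, 3 of 14 rose, where 2.02% of all genes did. They were Nr4a1, Nr4a3 and Rgs2, a brake on Gq-coupled receptors (0.84). Rgs2 lost its call without any 1 of the 7 arrays (adjusted p 0.0501 to 0.15). Sik1, a CREB-induced kinase, was at 0.79 against saline 2 h (adjusted p = 0.171) and at 1.81 with the second control (adjusted p = 1.3e-05), where its saline levels ran from 5.37 to 6.80 at 1 h and from 3.30 to 3.63 at 4 h.

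**Figure D3:**
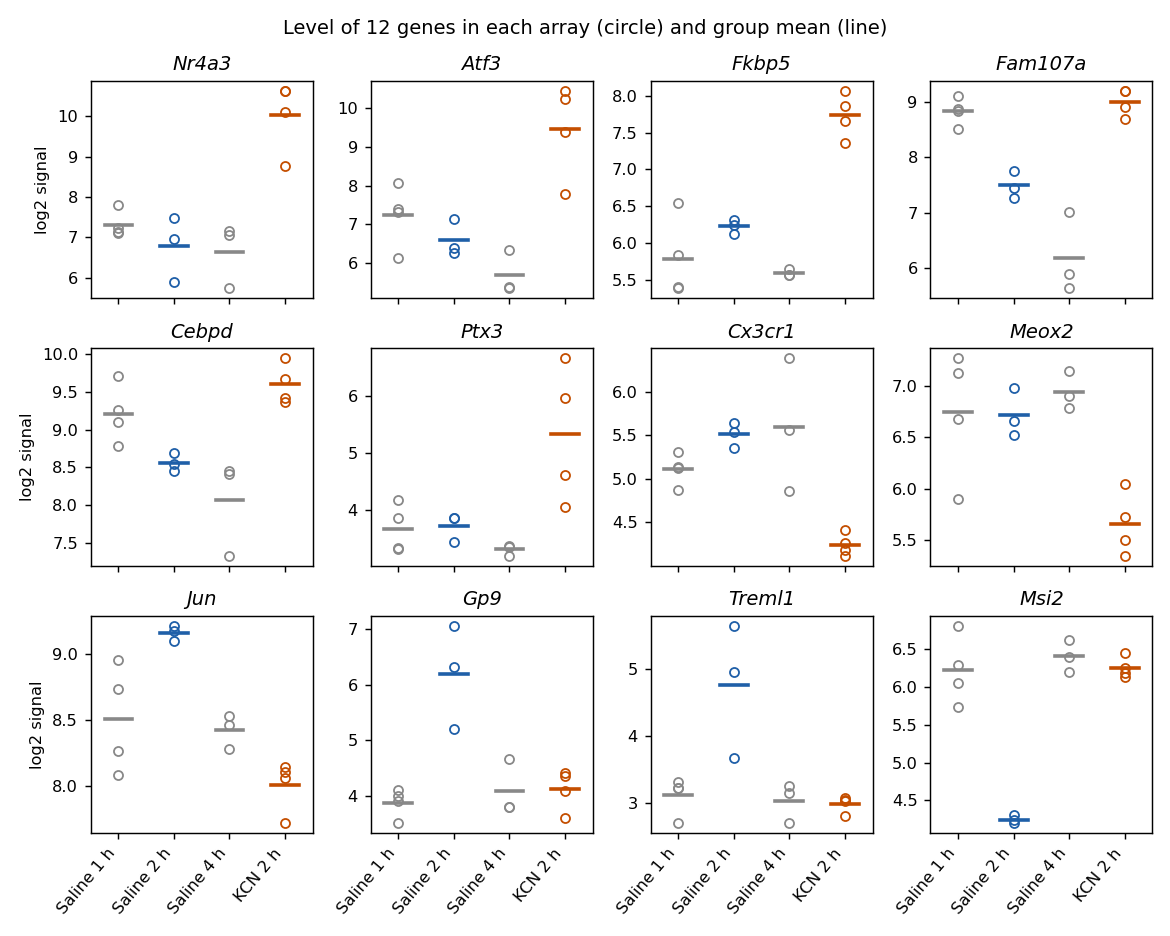
Log2 signal (vertical axes) of 12 genes in each array of saline 1 h, 2 h and 4 h and of KCN 2 h (horizontal axis); circles are arrays and lines are group means. Nr4a3, Fkbp5 and Cx3cr1 after KCN lie beyond all 10 saline arrays, Fam107a and Cebpd overlap the saline 1 h arrays, and for Gp9, Treml1 and Msi2 it is the 3 saline 2 h arrays that stand apart.

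Of 29 glucocorticoid-responsive genes tested, 11 rose and none fell (2.02% of all genes rose), and the median change was 0.42, against -0.05 over all genes. Against the second control 14 rose and none fell, where 6.18% and 5.82% of all genes did. Against either control 7 members rose, where 1.27% of all probe sets were called in the same direction against either. The count of 11 became 5 without saline array 1 and 7 without saline array 3, KCN array 1 or KCN array 4.

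Fkbp5, a co-chaperone of the glucocorticoid receptor and one of its best known targets, was at 7.86, 7.67, 8.07 and 7.36 after KCN and at 6.32, 6.24 and 6.12 after saline. All KCN arrays were above all 10 saline arrays of 1, 2 and 4 h. The change was 1.51 ± 0.35, 2.85-fold (adjusted p = 0.00433), and 2.05 with the second control. The brighter Fkbp5 probe set rose too, by 1.02 against saline 2 h and by 1.84 with the second control. Nfkbia, the inhibitor that holds NF-kB in the cytoplasm, was at 9.80, 9.50, 9.71 and 9.43 after KCN and at 8.51, 8.74 and 8.60 after saline. Its change was 0.99 ± 0.16 (adjusted p = 3.69e-05) and 0.88 with the second control, and no array left out ended the call. Gadd45g, a stress sensor of the p38 pathway, was at 7.1, 6.7, 7.2 and 7.0 against 5.9, 6.0 and 5.9. It rose by 1.05 ± 0.27, and by 1.06 with the second control, and lay above all 10 saline arrays.

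Other members rose against saline 2 h to levels that the saline 1 h arrays shared. Fam107a, an actin-bundling protein induced by stress and glucocorticoid, was at 9.20, 8.90, 8.69 and 9.20 after KCN and at 7.46, 7.76 and 7.28 after saline 2 h, a rise of 2.83-fold (log2 SE 0.36, adjusted p = 0.00608). Its saline arrays stood at 8.51 to 9.11 at 1 h and 5.64 to 7.03 at 4 h. Ddit4, an inhibitor of mTORC1 that glucocorticoid and hypoxia induce, was at 10.02, 10.51, 9.80 and 9.88 against 8.41, 8.81 and 8.67, a rise of 1.42 ± 0.29, with saline 1 h arrays at 9.80 to 10.23. Cebpd, an acute phase transcription factor, rose by 1.04 ± 0.24, from 8.45 to 8.69 in the saline arrays to 9.37 to 9.94 in the KCN arrays, and the saline 1 h arrays were at 8.78 to 9.70. Sgk1, a kinase of sodium transport and survival, rose by 0.86, with saline 1 h arrays at 9.0 to 9.7 against 8.8 to 9.7 after KCN, and lost its call without saline array 1 (adjusted p = 0.0535). With the second control the changes of these 4 genes were 1.48, 1.03, 0.96 and 0.59, all called. In saline mice all 4 stood lower at 4 h than at 1 h.

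Errfi1, a feedback inhibitor of the EGF receptor, and Bcl6, a transcriptional repressor, rose against saline 2 h alone, by 1.22 and 0.92, and were at 0.65 and 0.20 with the second control, where a dimmer Bcl6 probe set was at 1.35 and called. Errfi1 was lost without saline array 1 (adjusted p = 0.0723), and Bcl6 without saline array 1 or 3 or KCN array 1, 3 or 4 (adjusted p 0.051 to 0.201). Per1, a clock gene with a glucocorticoid response element, was at 0.78 ± 0.42 (adjusted p = 0.297) and at 0.36 with the second control (adjusted p = 0.566), and none of 10 core clock genes was called with either control. Lcn2, an acute phase protein that binds siderophores, was at 4.86, 5.14, 4.92 and 4.75 against 3.63, 4.15 and 4.43. All KCN arrays were above all 10 saline arrays, but the change of 0.85 did not pass against saline 2 h (adjusted p = 0.143) and was 1.22 with the second control (adjusted p = 0.0035).

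Of the IL-6 family and acute phase genes, 3 of 17 rose against saline 2 h and 9 against the second control, with a median of 0.52 and 0.62, and none fell in either. Over all genes 2.02% and 6.18% rose. The count of 3 became 0 in the fit of only the groups compared and 1 without saline array 2 or KCN array 1. Ptx3, a secreted pattern recognition protein, was at 5.96, 4.06, 6.66 and 4.62 in the KCN arrays and at 3.86, 3.44 and 3.86 in the saline arrays. KCN array 2 was barely above the saline arrays and below the highest saline 1 h array (4.18), while arrays 1 and 3 were the highest. Its change was 1.61 ± 0.37, 3.04-fold (adjusted p = 0.0039), and 1.84 with the second control. Socs3, the feedback inhibitor of gp130 signalling, rose by 1.02 with overlapping groups, and Il6ra, the IL-6 receptor chain, by 0.71. Both were called with the second control too (0.78 and 0.52), and both were lost without KCN array 1 or saline array 2 among others (adjusted p 0.0522 to 0.292). Cd14, a co-receptor for bacterial lipopolysaccharide on myeloid cells, was at 8.09, 7.41, 8.20 and 7.78 against 6.49, 6.70 and 6.86. It rose by 1.19 ± 0.26 (adjusted p = 0.00253), and by 1.22 with the second control, above all 10 saline arrays. It was the only 1 of 14 macrophage markers called against saline 2 h, whereas 4 rose and none fell with the second control (median 0.35). The summed signal of that list was 12.06 to 12.13 after KCN and 11.91 to 12.37 in saline 2 h, but 11.66 to 12.05 in saline 1 h and 11.65 to 11.89 in saline 4 h. KCN thus lay within the range of saline 2 h and above every saline 1 h and 4 h array, and the part of this in the rise of Cd14 was not tested. Of 23 NF-kB targets and cytokines, 2 rose and none fell, and 3 rose and none fell with the second control.

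Among p53 targets and regulators of apoptosis, 8 of 21 rose and 1 fell, where 2.02% and 4.36% of all genes did, with a median of 0.33. With the second control 4 rose and 2 fell, where 6.18% and 5.82% of all genes did. Against saline 2 h only 4 rose without saline array 1, saline array 3 or KCN array 4, and 5 without saline array 2 or KCN array 1. Members of this list are also in others, since Btg2, Gadd45g and Bcl6 are counted above. Gadd45b, which relays stress to p38 and JNK, was at 6.87, 6.28, 6.51 and 6.81 against 5.20, 5.32 and 5.50, a rise of 1.28 ± 0.29 (adjusted p = 0.00358) that was 0.86 with the second control. Mdm2, the ubiquitin ligase that degrades p53 and is itself a p53 target, fell by 0.36, and by 0.24 with the second control. Its call was lost without saline array 2 or KCN array 1 (adjusted p 0.106 to 0.126). Bcl2l11, which encodes the cell death protein BIM, went opposite ways: 7.08, 7.10, 6.64 and 7.07 after KCN was above saline 2 h (6.20, 6.08 and 5.97) by 0.89 but below saline 1 h (7.98 to 8.69), and with the second control the change was -0.78 (adjusted p = 0.00641). The call against saline 2 h was lost without saline array 3 or KCN array 4 (adjusted p 0.0513 to 0.0727). The Bcl2l11 probe set that was brighter in saline 2 h was at 0.12, not called, and at -0.71 with the second control, called. A dimmer one rose by 0.69 and was at -0.35 with the second control, not called there. The dimmest were at 0.27 and 0.28 against saline 2 h, neither called.

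Genes of vessel tone, of which 4 of 18 rose and 1 fell (2.02% and 4.36% of all genes), included Ramp3, Agt, Ednrb and Ramp2. Against the second control 4 rose and none fell, where 6.18% and 5.82% of all genes did. The rises against saline 2 h were 1 in the fit of only the groups compared and without KCN array 1. They were 2 with 1 value per gene and without saline array 1 or KCN array 4. Ramp3, which turns the calcitonin-like receptor into an adrenomedullin receptor, was at 8.00, 6.49, 7.61 and 7.53 after KCN and at 6.13, 6.28 and 5.81 after saline. All KCN arrays lay above all 10 saline arrays, KCN array 2 by the least. The change was 1.33 ± 0.25, 2.52-fold (adjusted p = 0.000373), and it was called with the second control too, but missed the threshold in the fit of only the groups compared (adjusted p = 0.0553). Agt, the precursor of angiotensin, was at 7.91, 5.15, 7.06 and 6.20 against 5.31, 5.14 and 5.01, with KCN array 2 inside the saline range. It rose by 1.43 ± 0.34, and by 1.85 with the second control, and was lost without KCN array 1 (adjusted p = 0.0734) and in the fit of only the groups compared (adjusted p = 0.193). Ednrb, the endothelin B receptor, rose by 0.46 and by 0.85, and lost the first call without 6 of the 7 arrays, all but KCN array 2 (adjusted p 0.0615 to 0.171). Ramp2, the partner of the adrenomedullin receptor in endothelium, rose by 0.98 against saline 2 h and was at -0.20 with the second control, and its call was lost without saline array 1 or KCN array 1 or 4 (adjusted p 0.0526 to 0.143). The other Ramp2 probe sets were at 0.07 and 0.89 against saline 2 h, neither called. With the second control they were at 0.39 (called) and -0.27 (not called). Aplnr, the apelin receptor, fell by 1.09 and was at -0.37 with the second control, with the call lost without saline array 3 or KCN array 4 (adjusted p 0.0965 to 0.126).

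Matrix proteases and their inhibitors rose at 3 of 12 members (2.02% of all genes) and none fell. With the second control 4 rose and none fell, where 6.18% and 5.82% of all genes did. Adamts9, a secreted protease of the versican-rich matrix, was at 8.15, 7.89, 8.24 and 7.97 against 6.65, 7.01 and 7.15, above all 10 saline arrays. Its change was 1.13 ± 0.19 (adjusted p = 0.000121) and 1.71 with the second control, and a second of its 3 probe sets rose by 1.57. Adamts1, a related protease, and Timp3, a matrix-bound inhibitor of such enzymes, rose by 1.16 and 0.99 against saline 2 h and were at 0.46 and 0.50 with the second control, neither called. Timp3 has 3 other probe sets, of which those at 0.80 and 0.76 were called with either control.

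The surface proteins Plxna2, Sdc4 and Cemip2 were among the largest rises that held with either control. Plxna2, a semaphorin receptor, was at 5.90, 5.43, 5.45 and 5.59 after KCN and at 4.07, 3.67 and 3.46 after saline. All 4 of its probe sets rose, by 0.86 to 1.86 against saline 2 h and by 0.94 to 1.22 with the second control. Sdc4, a heparan sulfate proteoglycan of focal adhesions, was at 8.80, 8.84, 8.67 and 8.88 against 7.04, 7.27 and 7.16, a rise of 1.64 ± 0.25 (adjusted p = 1.95e-05) that was 0.84 with the second control, and its other probe set rose by 1.39 and 1.16. Cemip2, a cell surface hyaluronidase, rose by 1.78 ± 0.22 and by 0.96, and its other probe set was at 0.39 and did not pass. For all 3 genes every KCN array lay above all 10 saline arrays. The saline 2 h arrays themselves differed from the mean of the other saline arrays, by -0.92, -0.79 and -0.81.

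Fewer falls than rises held with either control in proportion: 15.2% of the lower calls and 23.2% of the higher calls, a difference that was not tested. Cx3cr1, the fractalkine receptor of resident macrophages and monocytes, was at 4.18, 4.12, 4.41 and 4.26 after KCN and at 5.54, 5.36 and 5.64 after saline, below all 10 saline arrays. The change was -1.27 ± 0.31, 2.41-fold lower (adjusted p = 0.00576), and -1.11 with the second control. Meox2, a homeobox factor of endothelium, was at 5.35, 6.05, 5.73 and 5.50 against 6.66, 6.53 and 6.98. It fell by 1.06 and by 1.19 with the second control, its second probe set fell by 0.95, and the call was lost without saline array 3 or KCN array 1 or 4 (adjusted p 0.0516 to 0.0935). St8sia4, which builds polysialic acid, was at 5.17, 6.16, 5.05 and 5.34 against 6.25, 6.75 and 6.92. It fell by 1.21, and by 1.85 with the second control, and was lost without saline array 2 or 3 or KCN array 1, 3 or 4 (adjusted p 0.0573 to 0.111).

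Kdr, the main VEGF receptor of endothelium, was at 7.04, 7.60, 7.55 and 7.58 against 8.10, 8.06 and 8.21, a fall of 0.68, and of 0.66 with the second control, where 1 saline 1 h array reached down to 7.23. Its call was lost without any of the saline arrays or KCN array 1 or 4 (adjusted p 0.0543 to 0.149). Srrm4, a splicing regulator, fell by 1.57, with KCN arrays at 2.77 to 3.78 and saline arrays at 4.08 to 5.57, and by 1.05 with the second control. Mycn, a Myc family transcription factor, fell by 1.26 and 0.72, Ppp1r10, a subunit of nuclear protein phosphatase 1, by 1.20 and 0.61, and Tppp, a microtubule-binding protein, by 1.41 and 0.51 with the 2 controls in that order. Each of these 4 kept its call without any 1 array, but Mycn lost it in the fit of only the groups compared (adjusted p = 0.0546). For Srrm4, Mycn and Ppp1r10 only 1 probe set of 3, 2 and 2 was called against saline 2 h, and the other Ppp1r10 probe set was called with the second control (-0.67, adjusted p = 0.00607). Of 12 endothelial markers 1 rose and 2 fell against saline 2 h, where 2.02% and 4.36% of all genes did. With the second control 4 rose and 1 fell, where 6.18% and 5.82% of all genes did. The summed signal of the endothelial markers was 13.09 to 13.35 after KCN and 13.23 to 13.39 in saline 2 h. It was 12.89 to 13.14 in saline 1 h and 13.03 to 13.08 in saline 4 h.

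**Figure D4:**
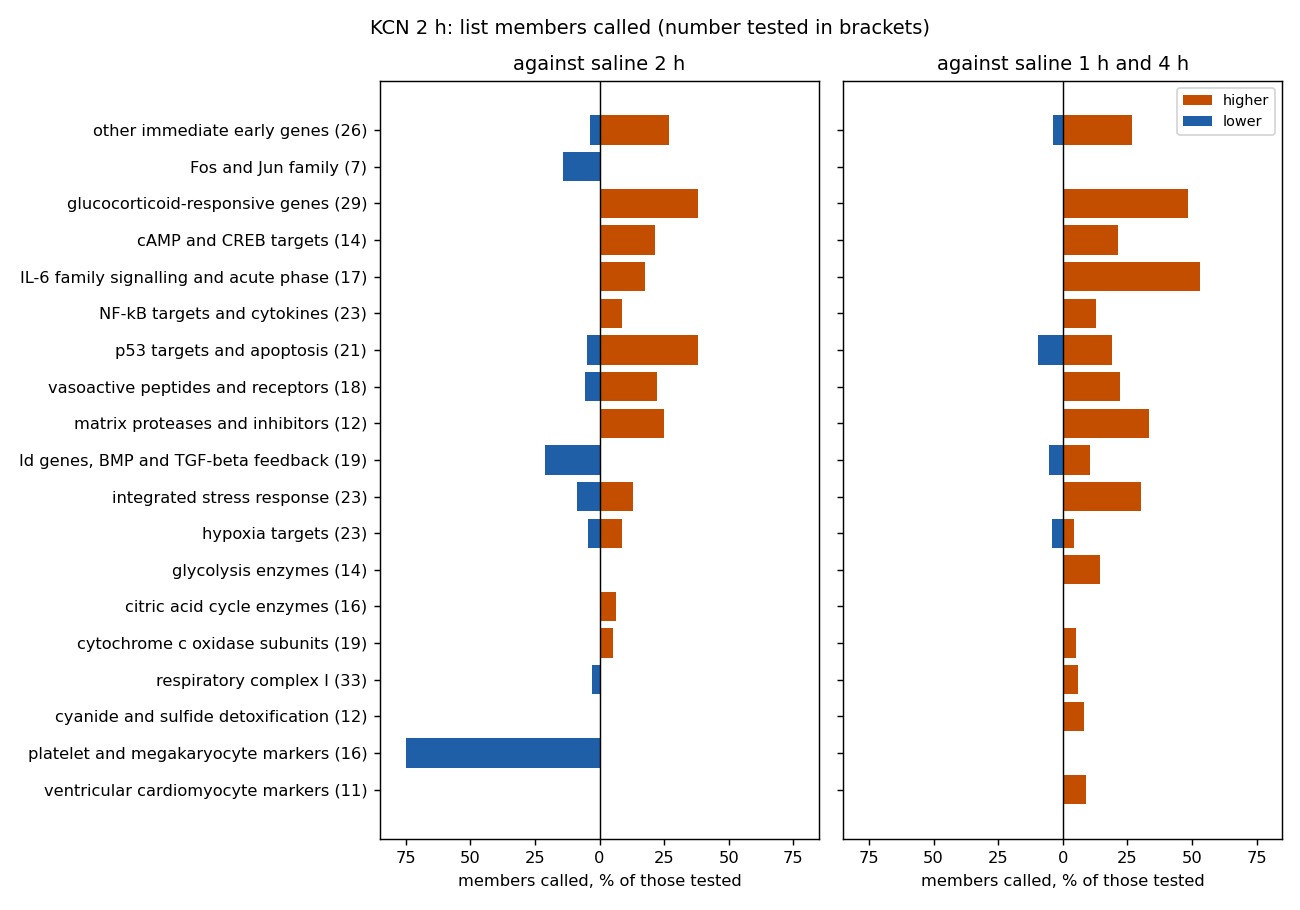
Share of tested members called higher (orange, to the right) or lower (blue, to the left) after KCN at 2 h, in percent (horizontal axes), for 19 gene lists (vertical axis, number tested in brackets), against saline 2 h (left panel) and against saline 1 h and 4 h (right panel). Glucocorticoid-responsive genes are 11 of 29 and 14 of 29 higher, and 12 of 16 platelet markers are lower in the left panel and none in the right.

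Platelet and megakaryocyte markers fell at 12 of 16 members against saline 2 h and at none against the second control, where 4.36% and 5.82% of all genes fell, the median going from -1.03 to 0.13. The count of 12 became 4 without saline array 1, 5 with a stricter filter on dim probe sets, 6 with KCN arrays 1 and 3 only and 7 in the fit of only the groups compared. Gp9, part of the platelet receptor for von Willebrand factor, was at 4.42, 4.36, 3.61 and 4.09 after KCN and at 7.06, 5.21 and 6.32 after saline 2 h. The saline 1 h arrays were at 3.51 to 4.11 and the saline 4 h arrays at 3.80 to 4.66, on a level with KCN. Gp9 fell by 2.08 ± 0.38, 4.23-fold (adjusted p = 0.000274), and was at 0.13 with the second control. Treml1, a receptor of platelet granules, was at 3.05, 3.03, 3.08 and 2.81 against 5.65, 3.68 and 4.95, a fall of 1.77, and at -0.09 with the second control.

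The platelet chemokines Ppbp and Pf4 fell by 2.22 and 0.74, Clec1b, the podoplanin receptor, by 2.05, Nrgn, a calmodulin-binding protein, by 1.72, Gp1bb, a partner of Gp9, by 1.71, and Rgs18, a G protein brake, by 1.59. Against the second control these 6 were between 0.02 and 0.67 and not called. Ppbp and Gp1bb lost the call without saline array 1 or 3 (adjusted p 0.0572 to 0.0964) and Pf4, Clec1b and Rgs18 without saline array 1 (adjusted p 0.0593 to 0.155). The summed platelet signal was 11.65, 10.87 and 11.41 in the saline 2 h arrays, 10.02 to 10.35 after KCN, 10.10 to 10.37 in saline 1 h and 10.01 to 10.40 in saline 4 h. The saline 2 h arrays were thus the high group in all 3 comparisons, and KCN lay within the range of the other saline arrays.

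Several of the largest rises showed the mirror image, with low values in the saline 2 h arrays. A probe set of Slc8a1, the sodium-calcium exchanger of heart muscle, was at 6.90, 7.43, 5.64 and 6.91 after KCN and at 4.46, 4.16 and 4.13 after saline 2 h, but the saline 1 h and 4 h arrays stood at 5.83 to 6.89. It rose by 2.47 ± 0.46 and was at 0.37 with the second control, and the other Slc8a1 probe set was at -0.31 and not called. A probe set of Msi2, an RNA-binding protein, was at 6.13 to 6.45 after KCN, 4.20 to 4.30 in saline 2 h and 5.74 to 6.81 in the other saline arrays, so it rose by 2.00 and was at -0.06 with the second control. Of the other Msi2 probe sets, 1 rose by 1.14 and was at -0.55 with the second control, and 1 was at 0.10 and not called.

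Filip1 (filamin turnover in muscle), Ccdc141, Ddx6 (a helicase of mRNA decay) and Sppl2a (an intramembrane protease) rose by 2.45, 2.32, 2.21 and 1.93 against saline 2 h, and Pcyt1a (phosphatidylcholine synthesis) was 3.48-fold higher. With the second control they were at 0.12, -0.75, -0.31, 0.10 and -0.30, none called. The other Sppl2a probe sets, brighter in saline 2 h, were at 0.27 and 0.09 and not called. Of the other Pcyt1a probe sets, the brightest was at 0.08 and another at -0.44, neither called, and 1 rose by 1.23. A brighter Filip1 probe set rose by 0.57 and was at 0.36 with the second control, not called there. The brightest Ddx6 probe set was at -0.05, and a further one rose by 1.99 but was lower with the second control, at -0.99. Ccdc141 rose at 4 of its 5 probe sets, and 3 of its KCN arrays (7.93, 7.70 and 7.70) lay below the saline 1 h and 4 h arrays (8.70 to 9.20), with KCN array 4 above them at 9.38. Rusc2, an adaptor of vesicle traffic, fell by 1.27 against saline 2 h and rose by 1.17 with the second control (adjusted p = 0.000789), while its other probe set was at -0.07.

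The same held for several developmental and stress genes that were lower than saline 2 h alone. Heyl, a Notch target in vessels, fell at all 3 probe sets, by 1.30 in the brightest, and Egfl7, an endothelial matrix protein, at all 3, by 0.70. Gata4, a cardiac transcription factor, fell by 0.99. With the second control these were at -0.27, 0.08 and -0.25, and a dimmer Gata4 probe set fell by 0.88 with the first control and rose by 0.52 with the second. Of 19 Id, BMP and TGF-beta feedback genes, 4 fell and none rose, where 4.36% and 2.02% of all genes did. They were the decoy receptor Bambi (-0.82), the inhibitory Smad6 (-0.59), the repressor Ski (-0.48) and the co-receptor Eng (-0.59). With the second control 2 of the 19 rose and 1 fell, where 6.18% and 5.82% of all genes did. Eng rose by 0.52 with the second control, Ski was at 0.21, Bambi at -0.34 and Smad6 at -0.11. Dimmer probe sets of Eng and Ski were at 0.12 and -0.06 against saline 2 h and not called. All 4 genes lost the call against saline 2 h without KCN array 4. Ski, Smad6 and Eng lost it without saline array 3 too, Bambi and Eng without saline array 1, and Eng without KCN array 1 or 2 (adjusted p 0.0677 to 0.232 over these fits).

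The enzymes that cyanide acts on and that handle energy had 1 or no member called per list against saline 2 h, near the share over all genes. Of all genes, 6.38% were called against saline 2 h (2.02% higher, 4.36% lower). With the second control 6.18% of all genes were higher and 5.82% lower. Of 19 cytochrome c oxidase subunits 1 was called, Cox6b1, at 12.81, 12.81, 12.80 and 12.76 against 12.73, 12.70 and 12.53. It rose by 0.14, was at 0.02 with the second control, and lost its call without saline array 3 or KCN array 1, 2 or 3 (adjusted p 0.0502 to 0.358). In complex I 1 of 33 members fell (Ndufb4, -0.27), in complexes II, III and ATP synthase 1 of 29 (Uqcr10, -0.28), and among citric acid cycle enzymes 1 of 16 rose (Idh3b, 0.33). With the second control these 3 were at 0.14, 0.16 and 0.18 and not called, and each call was lost without saline array 2. The counts with that control were 1 higher for cytochrome c oxidase, 2 for complex I, 3 for complexes II, III and ATP synthase and none for the citric acid cycle, with none lower. Ndufb4 was also lost without saline array 3 or KCN array 1, 3 or 4, and Idh3b without saline array 1 or KCN array 1, 2 or 4 (adjusted p 0.0522 to 0.236 over the fits of all 3 genes). The other probe sets of Cox6b1, Ndufb4 and Idh3b were at 0.03, 0.04 and 0.59, and those of Uqcr10 at -0.05 and -0.19, none called. None of 14 glycolysis enzymes, 12 genes of cyanide and sulfide detoxification, 19 of fatty acid oxidation or 46 cytosolic ribosomal proteins was called against saline 2 h. With the second control 2, 1, 4 and 14 of them rose, respectively, and none fell.

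Over all genes 2.02% were higher and 4.36% lower against saline 2 h, and 6.18% and 5.82% with the second control. Of 23 hypoxia targets 2 were higher and 1 lower, with a median of -0.01, and with the second control 1 was higher and 1 lower. Slc2a1, the glucose transporter that HIF induces, was at 6.93, 6.46, 6.57 and 6.51 against 7.04, 6.90 and 6.86, a change of -0.31 ± 0.18 (adjusted p = 0.341) that was -0.17 with the second control (adjusted p = 0.513). Vegfa, the endothelial growth factor, was lower by 0.61 against saline 2 h and at -0.07 with the second control. Its call was lost without saline array 2 or 3 or KCN array 1 or 4 (adjusted p 0.0686 to 0.102). A dimmer Vegfa probe set was at 0.53, and at 0.13 with the second control, called with neither. The only hypoxia target called with either control in 1 direction was Ddit4, which is also in the glucocorticoid list. In the integrated stress response 3 of 23 members rose and 2 fell (median -0.07), and with the second control 7 rose and none fell (median 0.19). Atf3 was the largest, and Ddit3, which encodes CHOP, went the other way: it fell by 0.74 against saline 2 h, was at 0.06 with the second control, and lost its call without saline array 1 (adjusted p = 0.0682). Among heat shock proteins 1 of 14 rose and 2 fell, including Bag3, a co-chaperone of HSP70, which fell by 0.53 and was at 0.08 with the second control, where no heat shock protein was called. Trim63, a muscle ubiquitin ligase under FOXO and glucocorticoid control, rose by 0.69 and was at 0.32 with the second control (adjusted p = 0.0556).

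Transcripts of other tissues varied between the KCN arrays. Scgb1a1, a secretory protein of airway club cells, was at 3.12, 12.27, 2.98 and 11.64 in KCN arrays 1 to 4 and at 2.57 to 2.79 in saline, and Bpifa1, another airway protein, at 2.97, 11.92, 2.78 and 11.95. Arrays 2 and 4 were thus high and arrays 1 and 3 at the saline level, and neither gene passed the test (adjusted p 0.303 and 0.365). The summed signal of 9 airway and lung markers was 6.50, 14.00, 6.22 and 13.61 in the KCN arrays and 6.26 to 6.42 in saline, against 12.97 to 13.81 at KCN 1 h and 11.27 to 14.07 at KCN 4 h. Adipocyte markers behaved differently: Ucp1, the uncoupling protein of brown fat, was at 9.09, 10.15, 3.25 and 9.34 against 3.41, 4.54 and 4.76 in saline, and Adipoq, the fat hormone, at 10.03, 11.04, 5.38 and 10.52 against 6.84, 7.19 and 7.22. KCN array 3 was the low one for both, and neither passed. Summed adipocyte signal was 13.13, 13.56, 12.58 and 13.11 after KCN and 12.68 to 12.80 in saline. Thymocyte markers summed to 6.40 to 7.37 after KCN and 6.19 to 6.27 in saline, with array 1 the highest, and neutrophil markers to 6.90 to 9.14 and 6.60 to 7.50, with array 4 the highest.

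With KCN arrays 1 and 3 alone, which lack the airway signal, 618 probe sets were called. Nr4a3 then rose by 3.84, Atf3 by 3.75, Ptx3 by 2.59, Fkbp5 by 1.74 and Nfkbia by 1.14, each called. Fam107a was at 1.45 (adjusted p = 0.0643), Nr4a1 at 1.73 (adjusted p = 0.0845) and Cx3cr1 at -1.22 (adjusted p = 0.0649), none called. Of the 78 named genes called with all arrays, 25 lost the call here. The setting leaves out array 2, the lowest for Nr4a3, Atf3 and Ptx3, so their larger values follow from the choice of arrays. The glucocorticoid list then held 6 members called higher. KCN array 2 was the lowest of the 4 for Nr4a3, Atf3, Nr4a1, Maff, Ptx3, Ramp3, Agt and Cd14 and the highest for Ddit4, so the treated arrays differed among themselves in these genes. It was also the lowest in the hybridization spike-ins, another control measure, at 9.375, against 9.588 to 9.865 in the other KCN 2 h arrays. Saline 2 h arrays were at 9.764 to 10.281 and the other 30 injection arrays at 9.465 to 10.667. The part of this in the gene values of array 2 was not tested.

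The KCN effect at 2 h was set against the effects at 1 h and 4 h, each with saline arrays of its own, so that no array is shared. The effect differed from that at 1 h at 935 probe sets (3.49%), with 527 higher (1.97%) and 408 lower (1.52%). It differed from that at 4 h at 510 (1.91%), with 198 higher (0.740%) and 312 lower (1.17%). For the difference from 1 h the count was 590 without KCN 1 h array 2 and 490 without KCN 2 h array 4. For 4 h it was 283 without saline 2 h array 3, 203 without saline 4 h array 2, 189 without KCN 2 h array 4, 186 without KCN 4 h array 1 and 302 without KCN 4 h array 2.

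**Figure D5:**
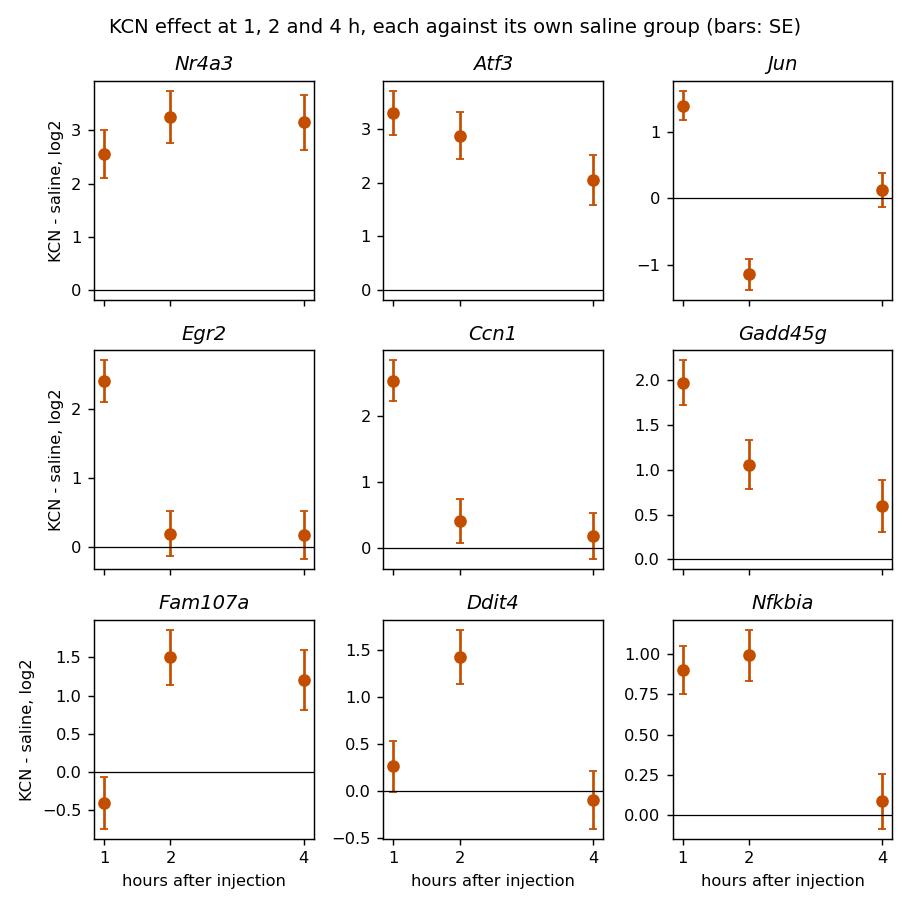
KCN minus saline on the log2 scale (vertical axes) at 1, 2 and 4 h after injection (horizontal axis) for 9 genes, each against the saline arrays of its own time; points are limma estimates and bars are standard errors. Jun, Egr2 and Ccn1 are high at 1 h alone, Nr4a3 and Atf3 at all 3 times, and Ddit4 stands highest at 2 h.

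The KCN effect was lower at 2 h than at 1 h for some early genes, and for others no difference was called. Of 7 Fos and Jun family members 3 were called lower, and of 26 other immediate early genes 6. None was called higher in either list. Over all probe sets 1.52% were lower and 1.97% higher. Fos itself was not called in this test. Jun was at 1.40 relative to saline at 1 h and at -1.15 at 2 h, a difference of -2.54 ± 0.32 (adjusted p = 9.57e-07). Egr1, a zinc finger early gene, was at 8.66, 7.15, 8.48 and 7.29 after KCN at 2 h and at 6.98, 7.57 and 8.52 in saline, with overlapping groups and a change of 0.20, against 2.46 at 1 h. The differences were -2.26 ± 0.60 for Egr1, -2.20 ± 0.45 for its relative Egr2, -1.77 ± 0.48 for Junb, -1.43 ± 0.39 for Fosb and -2.12 ± 0.45 for the matricellular gene Ccn1, all called. Nr4a3 and Atf3 did not differ past the threshold: Nr4a3 was at 2.56, 3.25 and 3.15 and Atf3 at 3.30, 2.87 and 2.04 at 1, 2 and 4 h. The differences 2 h minus 1 h were 0.69 ± 0.67 and -0.43 ± 0.60, so a difference of the size of these errors was not detectable.

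Other genes followed other courses. Fam107a was at -0.41 at 1 h and 2.83-fold higher than saline at 2 h, a difference of 1.90 ± 0.50 (adjusted p = 0.0187), where the saline level itself went from 8.51 to 9.11 at 1 h to 7.28 to 7.76 at 2 h. Adamts9 was at -0.06 at 1 h and 1.13 at 2 h (difference 1.18 ± 0.27). Ddit4 was at 0.26, 1.42 and -0.10 at 1, 2 and 4 h, and differed from 4 h by 1.52 ± 0.42 (adjusted p = 0.0423) but not past the threshold from 1 h (adjusted p = 0.0856). Nfkbia was at 0.90, 0.99 and 0.08, and differed from 4 h by 0.91 ± 0.23. Meox2 was at 0.30, -1.06 and 0.55 and differed from both times, by -1.36 ± 0.39 and -1.62 ± 0.42. The platelet genes named above, with the saline 2 h arrays on 1 side of each difference, were called lower than at either time too, for example Gp9 at -2.40 ± 0.52 and -2.66 ± 0.56.

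Cldn5, the main claudin of endothelial tight junctions, was at 1.48 at 1 h and -0.44 at 2 h, a difference of -1.92 ± 0.37 (adjusted p = 0.000961). Tob2, an antiproliferative partner of deadenylases, was at -0.17, 1.12 and 0.32 at 1, 2 and 4 h. Its saline 2 h arrays (7.61 to 7.93) were below those of saline 1 h (8.96 to 9.44), and with the second control it was at 0.36 and not called. The largest differences from 1 h were those of single probe sets of Pttg1ip and Ndufab1. Relative to saline of the same time, they were at -3.09 and -2.98 at 1 h and at 0.22 and 0.14 at 2 h. With the second control their changes at 2 h were -1.39 and -1.48, both called. The Pttg1ip probe set was dim, with means of 2.77 in saline 2 h and 2.98 in KCN 2 h. The brighter probe sets of both genes were between -0.09 and 0.28 at 2 h against saline 2 h.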

How the data were processed

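The deposited values are log2 signals per probe set, made by the authors; MAS5 is named in the submitters' processing notes without a version or role, and the array-to-array normalization is not given in the sources used here. Probe sets were named from the platform annotation (28898 of 45141 carry 1 symbol, 551 several and 15588 none). Testing was limited to the 26755 probe sets with a group mean over 3.23. A model of group means over all 69 arrays in 18 groups was fitted with limma 3.58.1 (R 4.3.3, eBayes with an intensity trend, 51 residual degrees of freedom), and p-values were adjusted by Benjamini-Hochberg over all probe sets tested. A call is an adjusted p of 0.05 or less. The labels call the arrays biological replicates without naming the mice. The p-values rest on the spread between arrays within groups, estimated over all 69 arrays and not from the arrays compared alone. The number of arrays limits the precision: the median standard error was 0.157. Control measures were compared by exact two-sided permutation tests (scipy 1.17.1).

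The fit was also run on simulated data with known changes and independent noise. That noise held no shift like that of the saline 2 h arrays, and nothing is read from this run here. A gene list was described by the brightest probe set of each gene, over 60 lists. Named genes outside the lists, and some list members, were shown by their called probe set of largest change among those the rule gave. The members and lists were chosen with earlier results of these data known. The genes named are part of those a rule gives: among called probe sets with 1 symbol and groups that do not overlap, the largest rises and falls and the largest among genes with several probe sets called; the members of every list with the lowest p (at most 8, called or not); the largest differences between times; and cell type markers. After the data were seen, the largest rises and falls called in the same direction against either control, without overlap, were added to the rule. For genes chosen this way, the same direction with either control was a condition of the choice. Alternatives covered normalization, filters, the model, the control group, the 18S signal, the replicate number and each array left out. The setting with KCN arrays 1 and 3 alone was added after seeing the data too. Promoters are RefSeq sequences of GRCm38.p6.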

Additional observations from a re-analysis of the deposited data

Results flagged for a closer look

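Among the 4 KCN 2 h arrays, single arrays lay far from the others for 4 named genes. Of the values looked at this way there were 116 (named genes, control measures and marker sums), and chance gives such a gap in about 1 of 20. Array 3 held Bcl2l11 at 6.64 where the others were at 7.07 to 7.10. Array 1 held Kdr at 7.04 where the others were at 7.55 to 7.60. Array 4 held Ccdc141 at 9.38, against 7.70 to 7.93. Array 3 held Ucp1 at 3.25, against 9.09 to 10.15.

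The KCN effect at 2 h differed from that at 1 h, by the test of the difference itself (limma), for 39 of the 95 named genes. The difference (2 h minus 1 h, log2) was -2.54 for Jun, -1.77 for Junb, -1.43 for Fosb, -2.26 for Egr1, -2.20 for Egr2 and -2.12 for Ccn1, all early genes. It was 1.90 for Fam107a, 1.33 for Bcl2l11, -1.02 for Ddit3, 0.85 for Klf13 and 1.29 for Tob2. Among genes of vessels, matrix and surface it was -1.92 for Cldn5, -0.79 for Egfl7, -1.66 for Heyl, -1.36 for Meox2, -1.08 for Bambi, 1.27 for Ramp2, 1.18 for Adamts9, 1.20 for Cemip2 and 1.81 for Plxna2. For the platelet genes it was -2.59 (Ppbp), -2.40 (Gp9), -2.53 (Clec1b), -1.80 (Treml1), -1.91 (Nrgn), -2.00 (Gp1bb), -2.15 (Rgs18) and -1.36 (Pf4). It was 2.40 for Ccdc141, 2.09 for Filip1, 2.00 for Ddx6, 2.03 for Msi2, 2.12 for Pcyt1a, 1.65 for Sppl2a, -1.41 for Rusc2, -0.94 for Tppp and -0.33 for Uqcr10. The single probe sets of Pttg1ip and Ndufab1 differed by 3.30 and 3.13.

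From the effect at 4 h, 32 of the 95 differed. Regulators that were higher at 2 h than at 4 h were Ddit4 (1.52), Nfkbia (0.91), Bcl6 (1.49), Klf13 (1.17) and Trim63 (0.69), and those lower were Ier3 (-1.08), Jun (-1.27), Ddit3 (-1.04) and Ppp1r10 (-1.21). Genes of vessels and surface differed by -1.05 (Egfl7), -1.15 (Heyl), -1.62 (Meox2), -0.97 (Vegfa), 1.49 (Cemip2) and 1.65 (Plxna2). The platelet genes differed by -3.49 (Ppbp), -2.66 (Gp9), -2.88 (Clec1b), -1.92 (Treml1), -2.10 (Nrgn), -2.56 (Gp1bb), -2.13 (Rgs18) and -1.29 (Pf4). Genes with low saline 2 h arrays differed by 2.63 (Slc8a1), 2.12 (Filip1), 2.29 (Ccdc141), 2.19 (Ddx6), 2.02 (Msi2), 2.01 (Pcyt1a) and 1.71 (Sppl2a), and Rusc2 by -1.88 and Tppp by -1.84. The saline 2 h arrays enter every one of these differences, and the part of their low 18S signal in them was not tested.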

How the results depend on the processing

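Of 95 named genes, 78 were called, and 44 of these kept direction and call without each array in turn. The count of 1764 at 2 h became 768 with 1 value per gene (fewer features tested), 544 in a fit of only the groups compared, 2957 with saline 1 h and 4 h as the control, 0 with the 18S signal as a covariate (2778 at an unadjusted p under 0.05), 618 with KCN arrays 1 and 3 only and 1139 at 1.5-fold; leaving out 1 array gave 871 to 1917. The difference from 1 h (935) became 337 with 1 value per gene and 490 to 1120 without 1 array. The difference from 4 h (510) became 331 with no filter, 200 with 1 value per gene, 50 in the fit of only those groups and 186 to 618 without 1 array. The saline contrast (5488) gave 3612 to 4614 without 1 array. List genes called (89) became 48 in the fit of only the groups compared, 139 with the other control, 49 with KCN arrays 1 and 3, and 50 to 89 without 1 array. Other than the fewer features or arrays that some of these settings hold by construction, the cause was not tested.

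With saline 1 h and 4 h as the control, 23 named genes that were called with at least 1 control changed sign: Bcl2l11 (-0.78), Ramp2 (-0.20), Egfl7 (0.08), Ski (0.21), Eng (0.52), Ppbp (0.67), Gp9 (0.13), Clec1b (0.28), Nrgn (0.23), Gp1bb (0.47), Rgs18 (0.02), Pf4 (0.34), Ccdc141 (-0.75), Ddx6 (-0.31), Msi2 (-0.06), Pcyt1a (-0.30), Rusc2 (1.17), Ndufb4 (0.14), Uqcr10 (0.16), Ddit3 (0.06), Bag3 (0.08), Pttg1ip (-1.39) and Ndufab1 (-1.48). Junb (0.70) and Fos (-0.32), called with neither control, changed sign too. The cause was not tested. The replicate numbers did not pair the arrays (correlations of same-numbered deviations -0.01, 0.02 and 0.10), and a fit with the replicate number as a block gave 1641, 852, 481 and 88 for the 2 h, 1 h, 4 h and list counts.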
